A study of Mus musculus with 6 samples.

Results

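The regions described here are the places in the mouse genome where only the SB peak list of a pSmad2 ChIP-Seq experiment has a peak. They were chosen by joining overlapping peak intervals of the 3 deposited lists (Activin, DMSO and SB) into 13017 regions and keeping those with intervals from the SB list alone, which gave 2702 regions, or 20.8% of all. Intervals were 833 bp wide around an Activin position, and 468 bp and 1110 bp before a DMSO and an SB position. Of the 4759 peaks of the SB list, 2728 lie in these regions, and the others lie in regions shared with another list, where 2011 overlap an interval of that list. Members were thus selected on SB ChIP tags over input and on the absence of a listed peak in the other treatments, so their tag numbers and ratios are a description and no test was made on them.

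E14 TG2A mouse embryonic stem cells were first kept for 6 h in 10 µM SB in medium with 20% KSR and no LIF, a step that all 3 treatments share. SB inhibits the receptor kinases that phosphorylate Smad2. For the next 18 h the cells received 25 ng/ml Activin, DMSO diluted 1 to 5000 as the solvent control, or again 10 µM SB. Each treatment has 1 ChIP library made with an antibody against phosphorylated Smad2 (pSmad2) and 1 input library of chromatin that skipped the antibody. With 1 library per group there is no replicate check, and every comparison is between these libraries or lists, not between treatments in general. The cells are 1 cultured line.

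Activin and Nodal bind receptor kinases at the cell surface, which phosphorylate Smad2 and Smad3, and these enter the nucleus with Smad4 and bind DNA. On their own Smad proteins recognise short sequences, CAGA (the Smad box) and GC-rich variants, and partner proteins such as FoxH1 take them to particular enhancers. In embryonic stem cells this pathway is known for target genes of its own feedback and of mesendoderm fate. The related BMP pathway uses other receptors and Smads, and the Id genes are among its best known targets. Regions listed after SB alone are thus places where a peak of pSmad2 ChIP was called while the receptors that make pSmad2 were inhibited. In the study's blot SB lowered pSmad2 and did not remove it.

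The sequences around the highest SB pileup show the range of these regions, from CpG-rich DNA near Id genes to ordinary DNA far from genes. The pileup counts the SB ChIP fragments, taken as 200 bp long, that cover a base. Each sequence has 300 bases of the mm9 (NCBIM37) plus strand, with CAGA and its reverse complement TCTG in capitals. The Id2, Id3 and Tcfap2c members are shown because their genes are on the Id and trophectoderm lists, BC027072 and Rfx3 because their ratios of SB to the other ChIP libraries were the highest, and Gm17241 because its SB pileup was. Members carry the name of the coding gene with the nearest start site. In this order the sequences lie at chr12:25783672-25783971, chr4:135700558-135700857, chr2:172384213-172384512, chr17:72089279-72089578, chr19:27731509-27731808 and chr15:99538362-99538661.
Id2: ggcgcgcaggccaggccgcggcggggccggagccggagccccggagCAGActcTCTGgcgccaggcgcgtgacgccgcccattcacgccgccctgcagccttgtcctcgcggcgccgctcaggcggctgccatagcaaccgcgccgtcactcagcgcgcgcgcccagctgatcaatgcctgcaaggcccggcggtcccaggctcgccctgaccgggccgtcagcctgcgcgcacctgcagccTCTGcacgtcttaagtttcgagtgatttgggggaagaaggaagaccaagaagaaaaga
Id3: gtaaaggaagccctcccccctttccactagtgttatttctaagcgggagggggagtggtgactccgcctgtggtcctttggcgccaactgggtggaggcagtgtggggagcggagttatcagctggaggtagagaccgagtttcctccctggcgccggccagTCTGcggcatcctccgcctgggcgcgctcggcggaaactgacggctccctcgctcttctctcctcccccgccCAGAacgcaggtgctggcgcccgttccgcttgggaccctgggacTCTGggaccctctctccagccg
Tcfap2c: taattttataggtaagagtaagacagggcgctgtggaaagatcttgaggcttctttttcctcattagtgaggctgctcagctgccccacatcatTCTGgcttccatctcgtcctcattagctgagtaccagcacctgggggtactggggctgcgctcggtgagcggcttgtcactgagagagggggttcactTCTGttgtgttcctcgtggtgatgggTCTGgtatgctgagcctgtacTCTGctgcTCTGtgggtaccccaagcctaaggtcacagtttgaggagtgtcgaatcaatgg
BC027072: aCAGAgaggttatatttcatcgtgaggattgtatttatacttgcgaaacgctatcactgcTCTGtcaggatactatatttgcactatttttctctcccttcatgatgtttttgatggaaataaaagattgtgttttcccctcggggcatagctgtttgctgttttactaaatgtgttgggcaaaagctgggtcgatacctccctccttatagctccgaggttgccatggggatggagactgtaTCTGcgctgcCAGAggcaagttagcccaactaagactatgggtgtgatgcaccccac
Rfx3: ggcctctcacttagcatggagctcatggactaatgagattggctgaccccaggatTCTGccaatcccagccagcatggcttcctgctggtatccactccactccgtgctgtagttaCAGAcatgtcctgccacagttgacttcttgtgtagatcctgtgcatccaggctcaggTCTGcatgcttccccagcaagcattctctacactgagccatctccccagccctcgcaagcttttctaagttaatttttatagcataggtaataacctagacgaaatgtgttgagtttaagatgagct
Gm17241: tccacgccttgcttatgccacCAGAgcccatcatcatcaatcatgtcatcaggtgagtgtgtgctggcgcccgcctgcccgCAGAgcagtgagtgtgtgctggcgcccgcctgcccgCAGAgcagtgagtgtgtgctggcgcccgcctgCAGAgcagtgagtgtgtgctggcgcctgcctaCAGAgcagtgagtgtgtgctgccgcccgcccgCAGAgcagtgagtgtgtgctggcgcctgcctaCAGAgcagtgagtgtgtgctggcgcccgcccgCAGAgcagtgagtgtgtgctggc
The Id2 sequence has 36 CG dinucleotides, 70.3% GC and 3 Smad boxes, and Id3 has 21 CG, 65.7% GC and 3 Smad boxes. BC027072 and Rfx3 have 7 and 3 CG with 4 and 3 Smad boxes, so the number of Smad boxes does not set the Id members apart. Tcfap2c has 5 Smad boxes and 7 CG. The Gm17241 sequence is a tandem repeat, in which 1 word of 15 bases occurs 7 times, and it holds 8 Smad boxes.

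The 6 libraries held 9757735 to 13148559 aligned tags of 35 bp, and the SB ChIP library was the smallest. Tags sharing position and strand with another were 19.9% to 24.6% of ChIP tags and 5.64% to 6.94% of input tags. The SB ChIP library also held more GC-rich DNA. In windows of 500 bp outside all regions, its ratio to the DMSO ChIP library rose from 0.845 at under 40% GC to 1.80 at 65% GC and over. The part of that tilt in the results below was not tested. For single members the ratio of SB to DMSO ChIP in windows of equal GC content is given as the window ratio. The ratios of single members below are to the higher of the DMSO and Activin ChIP libraries. Where that was Activin, the window ratio is of another pair of libraries and is no background for the member's ratio.

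The tag numbers that the SB list gives for the members ran from 9 to 1257, with a median of 21 and quartiles of 13 and 33. The highest pileup was 11 tags at the median and 47 at most. In 400 members (14.8%), called the wide kind below, the listed number was over 1.5 times the SB tags in the interval, 1 tag kept per position and strand. The fixed interval may hold only the last stretch of a wider peak there, but the lists give no start or end to check this. When SB intervals were lengthened until they held the listed tags, up to 10 kb, 1000 members grew, to a median of 1634.5 bp. Of all members, 176 (6.51%) then touched an interval of another list, 129 of them among the 400. This lengthening was chosen after seeing the data.

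All 10 members with the most listed tags were of this wide kind, and all 10 touched another list once lengthened. The first lies in an intron of Slc2a1, a glucose transporter gene, at chr4:118801831-118802940. The list gives it 1257 tags, but its interval held 65 SB tags, against 52 Activin and 90 DMSO ChIP tags. Scaled to 10 M (10000000) tags of the library these are 66.6, 39.5 and 69.9, so DMSO was not below SB there, and the inputs had 10.5 to 14.7. The ratio of SB to the higher of the other ChIP libraries was 0.953 (95% interval 0.682 to 1.33).

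Others of the members with the most listed tags lay near Calr, which encodes a calcium-binding chaperone of the endoplasmic reticulum, with 398 listed tags. Cisd3 had 266, Jund, which encodes an AP-1 subunit, 248, Ddx39 243 and Shmt2 227. Sphk2 had 201, and a further Slc2a1 member, 33118 bp upstream of the start site, 181. The ratios of SB to the higher other library at these named members ran from 0.687 at Ddx39 to 1.46 at Sphk2, and each of their intervals included 1. The ratio was above 1 at Cisd3, Jund, Shmt2 and Sphk2 and below 1 at Calr, Ddx39 and the further Slc2a1 member. With these intervals, no single place shows whether SB had more tags than the higher other library.

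Over all members the SB ChIP library had the most tags, as the choice of members fixes, and the other ChIP libraries lay a little above input. In tags per 10 M, SB ChIP ran from 9.22 to 98.4 with a median of 25.6 and quartiles of 18.4 and 32.8. DMSO ChIP ran from 0 to 69.9 with a median of 14.8, and Activin ChIP from 0 to 51.7 with a median of 12.9. The ranges overlap widely. The inputs had medians of 10.2 in DMSO, 9.53 in Activin and 8.56 in SB.

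**Figure D1:**
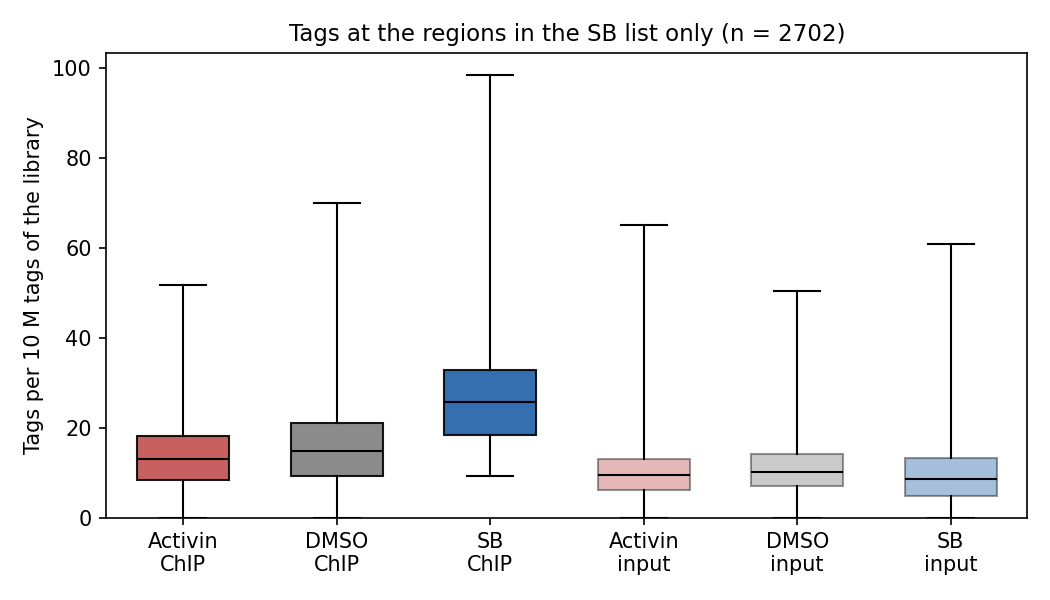
Tags per 10 M tags of each library in the 2702 regions of the SB list only; boxes give the quartiles with the median line, and whiskers run from the lowest to the highest region. The SB ChIP box sits highest, with a median of 25.6, and the DMSO and Activin ChIP medians of 14.8 and 12.9 lie above the input medians of 8.56 to 10.2.

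Summed over the members, ChIP exceeded its own input 2.77-fold in SB (95% interval 2.73 to 2.81), 1.38-fold in DMSO (1.36 to 1.40) and 1.34-fold in Activin (1.32 to 1.36). Intervals are exact binomial (Clopper-Pearson) and cover counting error only, since tags without molecular identifiers need not be independent molecules. At the 942 regions of all 3 lists the same ratios were 6.92, 5.85 and 5.02, but 1 region there held 17142 of the 151490 SB ChIP tags. Median levels there were 54.3 tags per 10 M in SB ChIP and 15.2 in SB input, against 25.6 and 8.56 at the members. The number of members at least 2-fold above input was 2355 in SB (87.2% of members, against 48.2% of all 13017 regions), a count that the choice of members fixes. It was 592 in DMSO (21.9%, against 61.3% of all regions) and 538 in Activin (19.9%, against 51.4%). The rule kept members without a listed peak over input in DMSO or Activin, so nothing is read from these low counts.

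The average profile separates a narrow SB signal from a broad one. In the 200 bp around the highest SB pileup, SB ChIP averaged 3.07 tags per 10 M per 50 bp, against 0.517 beyond 2 kb on either side, a ratio of 5.94. The position was chosen on the same SB tags, which raises this value by construction. DMSO ChIP and Activin ChIP had ratios of centre to flank of 1.88 and 1.87. The inputs had 2.02 in DMSO, 1.94 in Activin and 1.78 in SB. As a fold of the flanks, the central rise of DMSO and Activin ChIP was thus no larger than that of their own inputs.

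**Figure D2:**
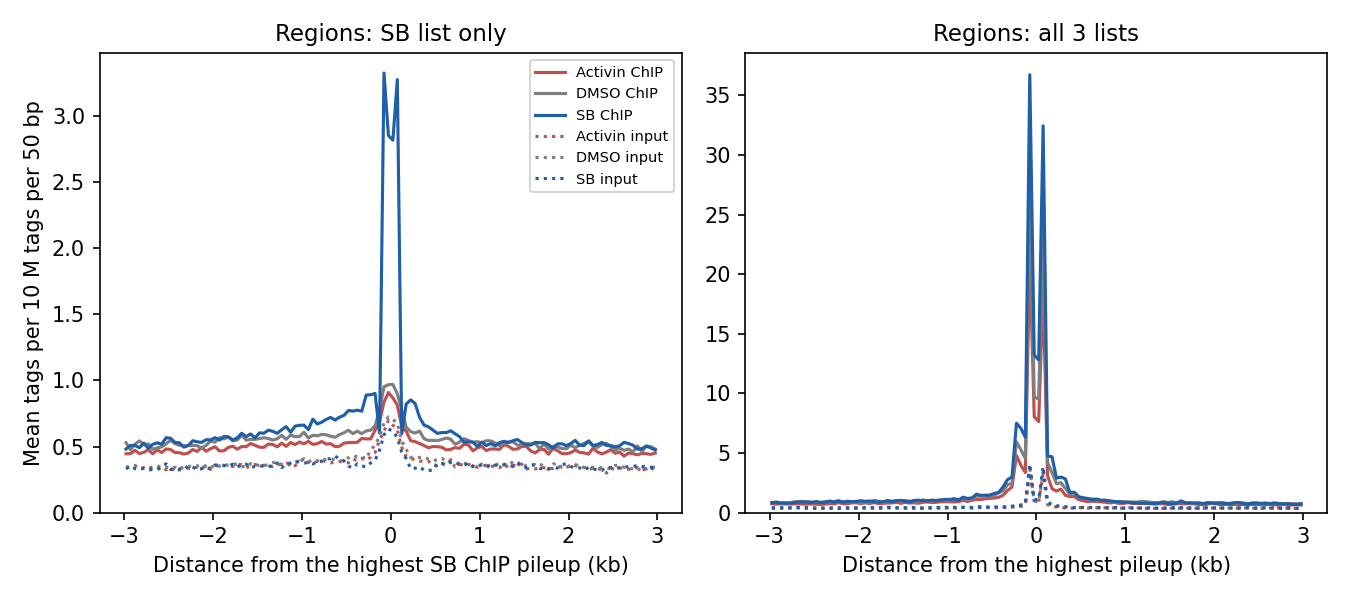
Mean tags per 10 M per 50 bp within 3 kb of the highest pileup, at the regions of the SB list only (left) and of all 3 lists (right), for 6 libraries; solid lines are ChIP and dotted lines input, and the vertical scales differ. On the left the SB ChIP line reaches a central level of 3.07 while DMSO at 0.948 and Activin at 0.857 follow the shape of the inputs; the sharp central peak of SB comes partly from centring on SB tags.

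At the regions of all 3 lists the centre-to-flank ratios were 29.1 in SB, 21.3 in DMSO and 19.7 in Activin ChIP, and 5.65 to 6.52 in the inputs. These come from means that include a region with 17142 SB ChIP tags, so they need not describe a typical region. At the flanks of the members, DMSO and Activin ChIP averaged 0.504 and 0.458, against 0.345 and 0.335 in the matching inputs. In the central 200 bp they averaged 0.948 and 0.857, against 0.696 and 0.650, so their distance above input was wider there.

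Counted member by member, 2539 (94.0%) had a higher scaled level in SB than in both other ChIP libraries. In 1532 (56.7%) the order was SB, then DMSO, then Activin. No share over all regions is given for these orders, so nothing is read from them. The SB level was at least 2-fold above DMSO in 1093 members (40.5%), where 11% of all regions passed, and at least 2-fold above Activin in 1329 (49.2%), where 17.7% of all regions passed. Both held in 722 members (26.7%, against 5.97% of all regions). The rule used these contrasts, so nothing is read from the excess over the background. A level under 3 tags in the lower library was set to 3 tags. The counts mean that in most members the SB library was less than 2-fold above DMSO, although the DMSO list has no peak there.

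Summed tags gave SB 1.74 times DMSO (95% interval 1.72 to 1.76) and 1.94 times Activin (1.91 to 1.96), and DMSO 1.11 times Activin (1.10 to 1.13). The SB input, in contrast, was 0.869 times the DMSO input (0.855 to 0.882). Members were called against the SB input, so a low SB input there goes with their choice. In the 230 members from 60 to 65% GC and the 172 at 65% and over, the SB input was 1.04 times the DMSO input in both steps. The ratio depended on GC content. It was 1.84 (1.74 to 1.94) in the 199 members under 40% GC, 1.64 (1.60 to 1.68) in the 560 members from 50 to 55%, and 2.13 (2.04 to 2.22) in the 172 members at 65% and over. Windows outside all regions had 0.845, 1.09 and 1.80 in the same steps. Members therefore stood above windows of equal GC content by most at low GC and by least in GC-rich DNA.

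**Figure D3:**
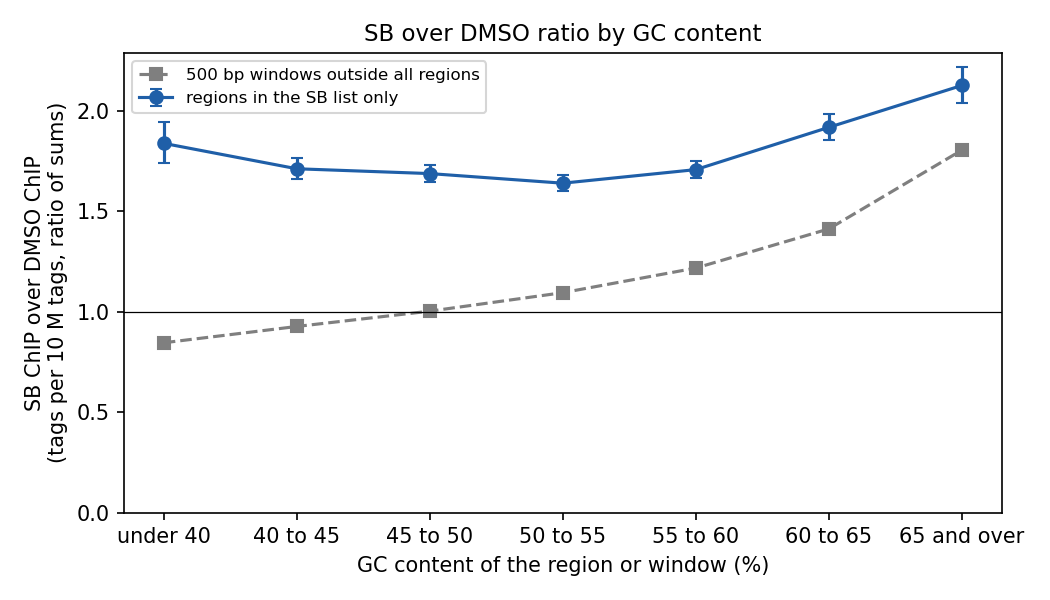
Ratio of summed SB to DMSO ChIP tags per 10 M by GC content, for the members (points with 95% binomial intervals) and for 500 bp windows outside all regions (squares). Members lie above the windows in every step, by 1.84 against 0.845 under 40% GC and by 2.13 against 1.80 at 65% GC and over.

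With each member's ratio divided by that of windows of equal GC content, the summed ratios were 1.52 to DMSO and 1.71 to Activin, and 904 and 1132 members were past 2-fold, against 1093 and 1329 before the division. At a threshold of 4-fold, 201 members passed against DMSO and 278 against Activin. Shares of all regions are not given at these settings, so nothing is read from these counts.

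Members lay near promoters more often than the regions listed after DMSO alone or Activin alone, although most members lay elsewhere. The highest pileup was within 1 kb of a coding start site in 733 of 2702 members (27.1%, 95% interval 25.5 to 28.8%), against 13.2% of the 4648 regions of the DMSO list only and 13.7% of the 2946 regions of the Activin list only. Both differences passed Fisher's exact test, two-sided, with Benjamini-Hochberg adjustment over 36 tests (adjusted p = 1.21e-46 and 2.85e-35). Against the regions of all 3 lists, at 28.8%, Fisher's exact test did not pass (adjusted p = 0.425), and the direction of that difference turned with at least 13 listed tags. Regions shared by DMSO and SB without Activin had 30.7%, and those shared by Activin and SB without DMSO 30.9%. Neither was tested, but the share near start sites was thus not particular to the members. The tests treat regions as independent and compare lists of 1 library each.

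Of the rest, 921 members (34.1%) lay in introns, 459 (17.0%) in exons, 350 (12.95%) outside genes but within 10 kb, and 239 (8.85%) over 10 kb from any coding gene. The last share was 14.3% in the DMSO list only and 19.4% in the Activin list only (adjusted p = 1.17e-11 and 1.72e-29, Fisher's exact test), and 11.1% in all 3 lists, where the test did not pass (adjusted p = 0.0699). With at least 13 listed tags the difference from the DMSO list only shrank from -5.44 to -1.89 percentage points (adjusted p = 0.0219, Fisher's exact test), and that from all 3 lists grew from -2.30 to -5.22 and passed (adjusted p = 3.70e-06). The share over 10 kb from any coding gene was lower still in regions shared by DMSO and SB (4.97%) or by Activin and SB (4.68%), which were not tested. Members near a start site favoured the transcribed side, with 502 downstream and 231 upstream and a median of 131 bp downstream. They belonged to 716 genes. Over all members the median distance to a start site was 6931 bp.

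**Figure D4:**
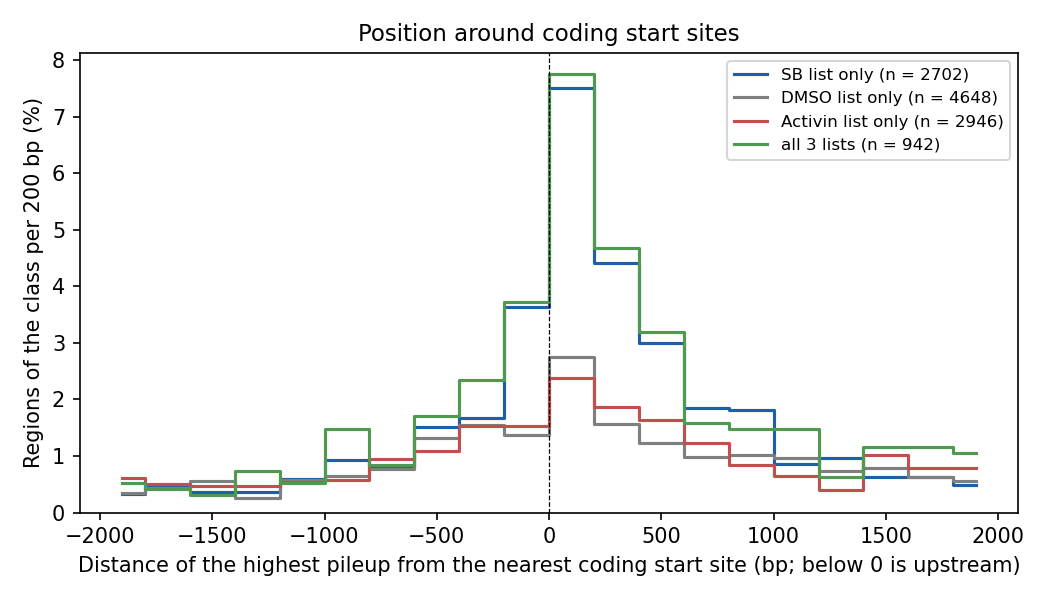
Distance of the highest pileup from the nearest coding start site in steps of 200 bp, as a percentage of each class of regions; values below 0 are upstream. In the first 200 bp downstream the SB list only holds 203 regions, 7.51% of its members, and its line runs near that of all 3 lists and above those of the DMSO list only and the Activin list only.

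The GC tilt of the SB library moves with this result. Members near a start site had a median GC content of 64% and 15 CG dinucleotides in the 200 bp around the pileup, and the other 1969 members 52% and 3 CG. The share near a start site rose from 0% of members under 40% GC in their interval to 86.6% at 65% and over. Over all members the medians were 54% GC and 4 CG, against 48.5% and 2 CG in the DMSO list only, 49.5% and 2 CG in the Activin list only, and 52.5% and 4 CG in all 3 lists. The ratio of SB to DMSO tags was 1.81 (1.77 to 1.85) at members near a start site and 1.71 (1.69 to 1.73) elsewhere. The median ratio of windows of equal GC content was 1.27 near start sites and 0.984 elsewhere. How much of the promoter share goes with GC content was not tested.

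The long Smad box CAGAC was about as frequent in members as in the DMSO list only and in all 3 lists, and less frequent than in the Activin list only. It was found within the 200 bp around the pileup, on either strand, in 43.6% of members, in 43.1% of the DMSO list only and in 43.1% of all 3 lists (adjusted p = 0.804 and 0.867, Fisher's exact test over the same 36 tests). The differences were 0.482 and 0.498 percentage points. The Activin list only had more, 46.9% (adjusted p = 0.0226, Fisher's exact test), and the regions shared by Activin and DMSO without SB, which were not tested, had 54.1%. The difference from the Activin list only, -3.35 percentage points, was -1.94 and no longer passed in 500 bp around the pileup (adjusted p = 0.146, Fisher's exact test), and was -12.3 in 200 bp around the listed position (adjusted p = 1.02e-19, Fisher's exact test). The listed position is the middle of the interval for Activin but its end for DMSO and SB. In members the pileup lay a median of 397 bp before it. Windows around the listed position, here and below, thus do not cover like places in the lists. Among all 13017 regions 44.6% held it. The short Smad box CAGA, which is part of the long one, was in 90.7% of members, 93.1% of the DMSO list only and 94.0% of the Activin list only (adjusted p = 0.000636 and 7.87e-06, Fisher's exact test), the first of them lost around the listed position (adjusted p = 0.459). In 500 bp around the pileup the difference from the Activin list only was -0.425 points, against -3.32 in 200 bp.

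A motif of FoxH1, the partner of Smad2 at many Activin targets, was rare in members. AATCCACA was found in 12 of 2702 members (0.444%, 95% interval 0.230 to 0.774%). It was in 1.27% of the DMSO list only, 3.12% of the Activin list only and 1.27% of all 3 lists (adjusted p = 0.000708, 1.18e-14 and 0.0294, Fisher's exact test), and in 1.87% of all regions. In the regions shared by DMSO and SB without Activin, which were not tested, the share was as low, 3 of 704 (0.426%, 0.0880 to 1.24%). In the regions shared by Activin and DMSO without SB it was in 8.28% (6.46 to 10.4%), and in the 192 regions of the Activin and SB lists away from start sites in 0 (0 to 1.90%). Away from start sites the members had 0.508%, the Activin list only 3.42% and the DMSO list only 1.34%, so the share was also low without the promoter members. Those members had a median GC content of 52%, and how much of the low share goes with GC content was not tested. Around the listed position the differences from the DMSO list only and from all 3 lists were lost (adjusted p = 0.0784 for both, Fisher's exact test), and in 500 bp around the pileup the difference from the DMSO list only grew from -0.825 to -1.65 points.

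GC-rich motifs went the other way. They hold the kind of DNA of which the SB ChIP library had more, with 1.80 times the DMSO level in windows at 65% GC and over, and how much of their shares goes with that was not tested. The GC box GGGCGG, bound by Sp1 and its relatives, was in 13.95% of members, against 5.59% of the DMSO list only and 6.08% of the Activin list only (adjusted p = 4.88e-32 and 1.68e-22, Fisher's exact test), and 14.01% of all 3 lists (adjusted p = 0.957). Among all regions 8.97% held it. Of the regions shared by DMSO and SB 16.6% held it, and of those shared by Activin and SB 10.8%, which were not tested. The GC-rich Smad box GGCGCC was in 6.55% of members, against 1.98%, 2.41% and 5.52% (adjusted p = 5.41e-22, 1.13e-13 and 0.382, Fisher's exact test) and 3.61% of all regions. GGCGCC was in 5.54% of the regions shared by DMSO and SB and in 6.47% of those shared by Activin and SB, also not tested. The tested differences depended on the window. Around the listed position that of the GC box fell from 8.36 to 2.31 percentage points against the DMSO list only and from 7.88 to 3.18 against the Activin list only. That of GGCGCC fell there from 4.57 to 1.13 against the DMSO list only, and against the Activin list only from 4.14 to 0.618, where it was lost (adjusted p = 0.356, Fisher's exact test). In 500 bp around the pileup the differences from the DMSO list only were 12.8 for the GC box and 8.01 for GGCGCC. Both motifs were more frequent near start sites. The GC box was in 33.7% of members near a start site and 6.60% of the others, and GGCGCC in 16.2% and 2.95%. Away from start sites the DMSO list only had 3.50% and 0.942%.

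The AP-2 motif GCCNNNGGC, also GC-rich, was in 11.3% of members, against 6.54% of the DMSO list only, 5.70% of the Activin list only and 8.28% of all 3 lists (adjusted p = 6.34e-12, 1.13e-13 and 0.0161, Fisher's exact test), and 7.64% of all regions. The last of these differences was lost in 500 bp around the pileup (adjusted p = 0.951, Fisher's exact test), and all 3 were lost around the listed position. Near start sites 21.3% of members held it and elsewhere 7.62%. The AP-1 motif TGANTCA was rarer in members, 4.07%, than in the DMSO list only at 6.15% and the Activin list only at 5.91% (adjusted p = 0.000309 and 0.00413, Fisher's exact test), and both of these were lost around the listed position. It was in 5.35% of all regions.

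Among the others, the octamer ATGCAAAT, bound by Oct4 and its relatives, was in 0.703% of members and 1.53% of the Activin list only (adjusted p = 0.00762, Fisher's exact test), with 0.839% in the DMSO list only (adjusted p = 0.727) and 1.10% of all regions. The E-box CACGTG was in 4.40% of members, 3.26% of the Activin list only (adjusted p = 0.0444, Fisher's exact test, lost with at least 13 listed tags) and 3.803% of all regions, and the E2F motif TTTCGCG in 3 members and 27 of all regions. Each match is of letters and says nothing of a bound factor.

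**Figure D5:**
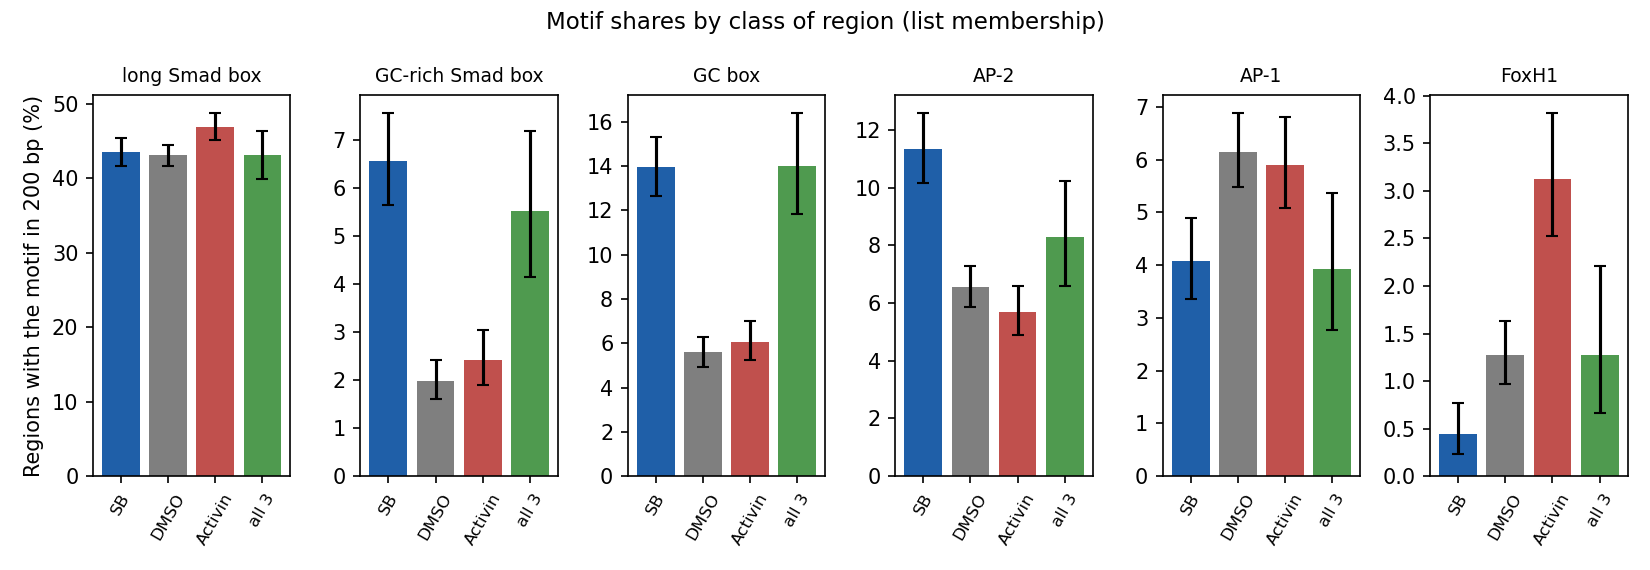
Share of regions with a motif in the 200 bp around the highest pileup, for 6 of the 10 motifs, in the SB list only, the DMSO list only, the Activin list only and all 3 lists; bars start at 0, error bars are 95% Clopper-Pearson intervals and the vertical scales differ. The GC-rich Smad box, GC box and AP-2 bars are higher in the SB list only than in the DMSO and Activin lists only, the FoxH1 bar is lower at 0.444%, and the long Smad box bars lie between 43.1% and 46.9%.

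Of 22350 coding genes, 14% had a member within 10 kb, which is the background for each gene list below. In these lists a member goes by the list gene, although the start site of another gene can be nearer. That was so at Smurf1 (Trrap), Acvr2a (Orc4), Lin28a (Dhdds), Fgf8 (Npm3) and Rps6-ps1 (Sharpin), with the nearer gene in brackets. Id genes encode helix-loop-helix proteins that hold other helix-loop-helix factors off DNA. Members lay within 10 kb of Id2 and Id3, and not of Id1 and Id4. The study reports pSmad2 binding specific to SB at Id1 too, so the absence there is of a region by the rule used here. The first Id2 member, at chr12:25783117-25784226 and 2864 bp upstream of the start site, had 72 SB ChIP tags, against 29 in Activin and 18 in DMSO ChIP and 10, 8 and 6 in the SB, Activin and DMSO inputs. Per 10 M these are 73.8, 22.1 and 13.98 for ChIP and 9.51, 6.93 and 4.72 for input. SB was 3.35 times the higher other ChIP library (95% interval 2.15 to 5.34), with a window ratio of 1.27. Its SB pileup of 40 was among the 10 highest of all members.

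The second Id2 member, 5014 bp upstream at chr12:25785238-25786347, had 23 SB tags, against 8 Activin and 10 DMSO ChIP tags and 2, 10 and 7 tags in the SB, Activin and DMSO inputs. Its ratio of 3.04 had a wide interval, 1.39 to 7.15, and the window ratio was 1.20. The Id3 member, at chr4:135700042-135701151 and 1295 bp downstream of the start site, had 56 SB, 22 Activin and 23 DMSO ChIP tags, and 20, 21 and 13 tags in the inputs. The ratio was 3.21 (1.95 to 5.47) and the window ratio 1.37. All 3 Id members were past 2-fold against both other libraries, as were 26.7% of all members, and none was of the wide kind. A further list held 7 genes picked for their expression after SB in the same experiment, and 3 of them, Id2, Id3 and Tcfap2c, had a member. That list is not independent of these samples.

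In the BMP pathway 3 of 26 genes had a member, Bmpr1a and Bmpr2, which encode receptors, and Smurf1, which encodes a ubiquitin ligase for Smads and receptors. The Bmpr1a member lay 189 bp downstream of the start site with 23 SB, 11 Activin and 13 DMSO ChIP tags, and 6, 2 and 6 tags in the inputs, a ratio of 2.34 (1.13 to 5.02). Its window ratio was 1.90. At Bmpr2 the ratio was 1.26 (0.671 to 2.37), below the window ratio of 1.90, and at Smurf1 1.31 (0.785 to 2.18) with a window ratio of 1.20, and neither interval leaves out 1.

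In the Nodal/Activin pathway 4 of 25 genes had one, the receptor genes Acvr2a and Acvr2b, Smad3, and Ski, which encodes a repressor of Smad complexes. None of their 5 members was past 2-fold against both other libraries, where 26.7% of all members passed. The first Ski member, in an intron, had 32 SB, 31 Activin and 18 DMSO ChIP tags, and the second, 689 bp from the start site, 49, 58 and 38. Scaled ratios to the higher library, Activin at both, were 1.39 (0.822 to 2.36) and 1.14 (0.762 to 1.69). The window ratios of 1.13 and 1.77 are of SB to DMSO, so they are no background for these. At Acvr2b, with 23 SB, 16 Activin and 23 DMSO tags, the ratio was 1.32 (0.708 to 2.46) and the window ratio 1.90. The ratio at Smad3 was 1.03 (0.586 to 1.80) and at Acvr2a 1.07 (0.475 to 2.38), with window ratios of 1.13 and 0.872. The Smad3 member and 1 Ski member touched another list once lengthened.

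In the trophectoderm list 3 of 22 genes counted. Tcfap2c encodes the AP-2 gamma factor of the trophectoderm, and its member, 7871 bp downstream of the start site, had 21 SB, 18 Activin and 13 DMSO ChIP tags and 7 to 8 tags in the inputs. The ratio was 1.57 (0.798 to 3.13), so the interval held 1, and the window ratio was 1.03. The Ets2 member, 965 bp downstream of the start site, had 35 SB, 9 Activin and 29 DMSO tags and a ratio of 1.59 (0.946 to 2.70), beside a window ratio of 1.61. Fgfr2 counts only because the annotation gives it a span of 3.01 Mb, and its 9 members all had other genes nearest, such as Ctbp2, Nsmce4a, Oat and Zranb1.

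Pluripotency genes had a member in 6 of 23. These were Fgf4, a growth factor gene, and Sall4, Sox2, Lin28a, Mycn and Esrrb, which encode regulators of the stem cell state. The member near Sall4, of the wide kind and with the start site of Atp9a nearest, had 38 SB, 19 Activin and 19 DMSO ChIP tags. Its ratio was 2.64 (1.48 to 4.85). The member near Mycn had 40, 28 and 27 and a ratio of 1.93 (1.16 to 3.24), with a window ratio of 1.13 at both. At Sox2, 7169 bp from the start site, there were 26 SB, 28 Activin and 33 DMSO tags, a ratio of 1.04 (0.597 to 1.79), and the window ratio was again 1.13. Of the 7 members in this list, 5 had a listed gene nearest, and 2 were past 2-fold against both libraries, where 26.7% of all members passed.

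Mesendoderm genes had a member in 3 of 18, Foxa2, Tbx6 and Fgf8. None of these members was past 2-fold against DMSO, where 40.5% of all members and 11% of all regions passed. All 3 were past 2-fold against Activin, as were 49.2% of all members and 17.7% of all regions. Foxa2 had 14 SB and 17 DMSO tags, and 3 Activin tags, which is the floor. Ratios to the higher other library were 1.09 (0.496 to 2.34) at Foxa2, 1.09 (0.665 to 1.77) at Tbx6 and 1.75 (1.07 to 2.88) at Fgf8. Their window ratios were 1.03, 1.13 and 1.49. Among E2F and cell cycle genes 5 of 24 had a member, the cyclin genes Ccne2, Ccnd1 and Ccnd3 and the E2F factor genes E2f2 and E2f4. The Ccne2 member, 170 bp from the start site, had 35 SB, 17 Activin and 13 DMSO tags and a ratio of 2.77 (1.51 to 5.28), with a window ratio of 1.37. At Ccnd3 the ratios were 1.01 and 1.21, with 1.07 in windows for both.

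Ribosomal protein names, a list that also takes in a kinase gene and pseudogene names by their prefix, had a member in 32 of 150. Of their 37 members, 25 had a listed gene nearest and 13 were of the wide kind, as were 14.8% of all members. Past 2-fold against both libraries were 5, where 26.7% of all members passed. Among those with the most SB tags, the member near Rps6-ps1 had 49 SB, 34 Activin and 41 DMSO tags, and that near Rpl26 had 41, 44 and 30. Histone genes had a member in 5 of 67, at Hist2h2aa2 and Hist3h2a, with 25 and 41 SB tags, and both members touched another list once lengthened. Hox genes had one in 4 of 40, through 2 members. The member at Hoxb9 and Hoxb8 had 25 tags in SB ChIP and 25 in SB input, so ChIP was 1.08 times input there, and that at Hoxb4 and Hoxb3 had 19 SB, 28 Activin and 8 DMSO tags.

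The 10 members with the highest ratio of SB to the other ChIP libraries, among those at least 4-fold above SB input, were all small, and 5 lay over 10 kb from any coding gene. They had 9 to 12 listed tags and 13 to 20 SB ChIP tags, against 0 to 4 in Activin and 0 to 4 in DMSO ChIP. BC027072, at chr17:72088572-72089681, had 16 SB tags, 3 Activin and 3 DMSO tags, and 3, 1 and 5 in the SB, Activin and DMSO inputs, a ratio of 7.04 with an interval of 2.02 to 37.7. Rfx3, 179678 bp from its start site, had 15, 3 and 2 tags and 6.60 (1.91 to 36.3). Rassf9 had 20, 3 and 4 tags and 6.60 (2.21 to 26.6). The rest were A230006K03Rik, Lrriq3, Kcnn2, Hps1, Lass3, 1600021P15Rik and Tmem26, with ratios from 5.72 to 6.60 and 13 to 19 SB tags. None lay within 1 kb of a start site, and none touched another list when lengthened. Their window ratios ran from 0.843 to 1.03. Ratios this high were thus found at places with few tags, where 1 tag moves them most.

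The members with the highest SB pileup, named after their values were seen, were of another kind. Gm17241 led with a pileup of 47, at chr15:99537829-99538938, with 86 SB, 62 Activin and 41 DMSO ChIP tags and 28, 31 and 29 tags in the inputs. Its ratio was 1.87 (1.33 to 2.63), with a window ratio of 1.20, and its sequence is the repeat shown above. Gm15319 had 85 SB, 47 Activin and 87 DMSO tags, with 58 to 64 tags in the inputs, so SB ChIP was only 1.43 times its input. At Ankle1 SB ChIP, with 36 tags, was below its input of 50, and only 17 tags stayed with 1 per position.

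Promoters made up 4 of these 10. Mat2a, which encodes the enzyme that makes S-adenosylmethionine, had 71 SB, 38 Activin and 38 DMSO tags, a ratio of 2.47 (1.64 to 3.76), with a window ratio of 1.61. Actn4, which encodes an actin crosslinker, had 49, 23 and 35 and a ratio of 1.85 (1.17 to 2.94), with a window ratio of 1.37. The tags were 71, 47 and 54 at 2400003C14Rik and 55, 23 and 41 at 5830403L16Rik, with window ratios of 1.49 and 1.61. Srxn1, whose protein repairs oxidised peroxiredoxins, had 67, 42 and 42 tags with a ratio of 2.11 (1.41 to 3.17), and Rasl10a 89, 67 and 60 with 1.79 (1.29 to 2.496), and their window ratios were 1.20 and 1.13. Id2 was the fourth highest by pileup and had the highest ratio of the 10.

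Members were spread over 2089 places of 100 kb, of which 457 held at least 2 members and 10 at least 5. The most, 7, lay on chromosome 8 from 3.4 Mb, near Arhgef18 and Pex11c, with 26.6 to 62.5 SB, 18.6 to 39.6 DMSO and 11.4 to 34.2 Activin ChIP tags per 10 M and inputs of 6.06 to 31.4. Another 6 lay on chromosome 8 near Setd6 and Cnot1, with 18.4 to 28.7 SB and 14.8 to 26.4 DMSO tags per 10 M, and 6 on chromosome 9 near Kank2, Gm6484 and Dock6, with 27.7 to 63.5 SB and 13.2 to 33.4 DMSO. The ranges of SB and DMSO overlapped in each. Per Mb, chromosome 11 held the most members, 2.13, and chromosome X the fewest, 0.330. The SB input had 5682 tags per Mb on chromosome 11 and 1252 on X. It was densest on chromosome 8, with 5956 tags and 1.47 members per Mb, while chromosome 7 had 3888 tags and 1.40 members per Mb.

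The edge of the rule is a distance between intervals. Of the 2728 SB intervals in members, 59 ended within 100 bp of an interval of another list and 340 within 1 kb, and 77 of the SB intervals outside the members overlapped one by at most 100 bp. Just inside, Csnk1g2 was separated by 1 bp from an Activin interval and had 38 SB, 21 Activin and 23 DMSO tags. Vdac3, separated by 10 bp from a DMSO interval, had 22, 42 and 51. Just outside, Gm1305 overlapped by 5 bp with 52, 72 and 61 tags, and Trp53inp1 by 7 bp with 86, 73 and 87. Mphosph6 and Gtf2e2, also just inside, had 25 and 31 SB tags against 28 and 31 in DMSO. The 5 nearest inside had 22 to 38 SB and 23 to 51 DMSO tags and the 5 nearest outside 46 to 86 and 58 to 87. By the rule, regions just outside are joined with a listed peak of another treatment, so nothing is read from this difference.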

How the data were processed

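The data are 6 files of aligned tags and 3 peak lists, with 1 ChIP and 1 input library per treatment and no pooling. The authors aligned tags to mm9 and called peaks with MACS at a p-value cutoff of 1e-05, ChIP against its own input, with tags extended to 200 bp; the aligner and tool versions were not given in the sources used here. Each of the deposited peak lists holds for each peak 1 position and a count, its number of tags, with no start or end. Intervals therefore ran from 416 bp before to 416 bp after an Activin position, and from 467 bp and 1109 bp before a DMSO and an SB position. The members and the gene and motif lists were chosen with earlier results of these data known.

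A tag was counted where the middle of its 200 bp fragment lay, all tags kept, and counts were scaled to 10 M tags per library. A fold was computed against at least 3 tags. Each library held 9757735 to 13148559 tags, so a median member rests on a count of about 22 SB tags, 1 kept per position, and a single member's ratio carries a wide interval. Positions came from the NCBIM37 genome, which is mm9, and its GENCODE annotation with 22350 coding genes. A DMSO ChIP tag ran 2 bp over the end of chromosome 19.

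Shares of regions near start sites, far from genes and with 10 motifs were compared between the members and 3 other classes by Fisher's exact test, two-sided, with Benjamini-Hochberg adjustment over 36 tests at 0.05. Named members were the 10 with the most listed tags, the 10 with the highest ratio among those at least 4-fold above SB input, those within 10 kb of a listed gene, those at the edge of the rule and those in the 3 densest places of 100 kb; the 10 of highest pileup were added after their values were seen. GC content was taken into account by the ratio of libraries in 500 bp windows outside regions, in steps of 2.5 points. Alternatives changed intervals, overlap, repeated tags, scaling, thresholds, distances and windows. The share test and the fold rule were tested on simulated data. Python 3.11.15, numpy 2.4.6, pandas 2.3.3, scipy 1.17.1, statsmodels 0.14.6 and matplotlib 3.10.9 were used. Microarray and other data of the study were not analysed here, and results at some named members are not reported here.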

Additional observations from a re-analysis of the deposited data

How the results depend on the processing

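The number of members ran from 2124, with at least 13 listed tags in each list, to 2864, with an overlap of at least 200 bp, and was 2509 with SB intervals lengthened to their listed tags. The summed ratio of SB to DMSO was 1.77 when scaled by tags outside regions and 1.52 by windows of equal GC content, and that to Activin 1.98 with 1 tag per position, 1.98 by tags outside regions and 1.71 by GC content. At a threshold of 4-fold 201 members passed against DMSO and 278 against Activin, with no share of all regions given at that threshold. With a distance of 50 kb, 5916 coding genes had a member. Of 114 alternative values of the tests of shares, 90 kept direction and side of the threshold. In percentage points of members minus the other class, the share near start sites against all 3 lists was -5.40 with start sites of all transcripts, -10.2 within 5 kb, and reversed to 4.63 with at least 13 listed tags (Fisher's exact test, adjusted p = 0.0207), so no direction is given for it. At least 13 tags also gave -5.22 for regions far from genes and 2.43 for the GC-rich Smad box, both against all 3 lists, and 1.06 for the E-box against the Activin list. Around the listed position the difference from the DMSO list was -0.727 for the Smad box, 0.0764 for AP-1 (reversed), 1.05 for the E-box, -0.505 for FoxH1 and 0.233 for AP-2; from the Activin list 0.618 for the GC-rich Smad box, -1.16 for AP-1, 0.476 for the E-box and 0.370 for AP-2; and from all 3 lists -0.788 for FoxH1 and -0.475 for AP-2 (reversed). In 500 bp windows it was -0.349 for the Smad box, 0.390 for E2F (reversed), 1.64 for the E-box and -1.41 for the octamer against the DMSO list, -1.94 for the long Smad box against the Activin list, and -2.10 for the octamer and 0.280 for AP-2 against all 3 lists. The long Smad box against the Activin list was -12.3 around the listed position. That position is the middle of an Activin interval but the end of a DMSO or SB interval, so these windows do not cover like places. The causes were not tested. No paired analysis was possible because each group has 1 library. Leaving out a replicate was not possible for the same reason, and at a median of 11 overlapping SB tags the depth limits single members most.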
